A study of Homo sapiens with 8 samples.

Results

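The genes described here encode the proteins of the cytosolic ribosome, and they were taken from a MeRIP-seq count table of SK-N-BE(2) cells by the shape of their symbols. SK-N-BE(2) is an established human neuroblastoma line. A gene was included when its symbol began with RPL or RPS and went on with A, with P0 to P2, or with a number that could be followed by A, X, L or L1. This gave 85 of the 56303 genes in the table, of which 33 are named for the small (40S) subunit and 52 for the large (60S) subunit. The cells carried either a control shRNA (shNC) or an shRNA directed at METTL14 (shMETTL14), and the 4 groups, shNC input, shNC IP, shMETTL14 input and shMETTL14 IP, held 2 libraries each. Both arms are cultures of this 1 line, and the labels do not say whether the shMETTL14 cultures 1 and 2 are repeats of 1 shRNA or 2 different shRNAs. In MeRIP-seq, fragments of polyadenylated RNA are divided into a minor portion, the input, and a major portion that is precipitated with an antibody against N6-methyladenosine (m6A) (the IP). The input therefore describes RNA level, and IP over input describes how well the antibody recovered a gene's RNA relative to the average gene.

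METTL14 and METTL3 form the nuclear complex that writes m6A on messenger RNA, in which METTL3 carries out the methylation and METTL14 helps to bind the RNA. Ribosomal protein mRNAs are among the most abundant mRNAs of growing cells. Most of them belong to the 5′ terminal oligopyrimidine (TOP) mRNAs, which begin with a C inside an unbroken run of pyrimidines (C or T in the DNA). Through this run mTORC1, acting on the RNA-binding protein LARP1, couples their translation to nutrients and growth factors, and in neuroblastoma MYCN is known to drive ribosome production.

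Start sites were available from RefSeq (GRCh38.p14) for 67 of the 85 genes. Within 3 bases of the start, 56 of the 67 (83.6%) had a pyrimidine run of at least 5 bases, against 33.9% of the 27305 genes listed. A run of at least 8 bases was found in 73.1% of them, against 11.9% of all genes. The median longest run was 11 bases for the ribosomal protein genes and 3 for all genes. Runs were read only on the strand that has the sequence of the RNA. They are a description of these letters, not a mapped start of transcription in these cells. The windows below, of 30 bases from 10 before the start, belong to genes whose values are given later, and the capitals mark the longest pyrimidine run at the start. RPS24 (chr10:78033853-78033882, plus strand) had the highest IP over input of these genes and RPL10 (chrX:154398367-154398396, plus) the lowest. RPL6 (chr12:112411423-112411452, minus), RPS13 (chr11:17077648-17077677, minus) and RPL21 (chr13:27251548-27251577, plus) were among the largest falls in input, and RPL12 (chr9:127451387-127451416, minus) was the single rise.
RPS24: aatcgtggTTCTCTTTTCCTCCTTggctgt
RPL10: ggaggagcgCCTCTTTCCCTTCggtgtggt
RPL6: gtaTCCTCagtgaatcagaaccagaaaaag
RPS13: ctctcgCTCTCCTTTCgttgcctgatcgcc
RPL21: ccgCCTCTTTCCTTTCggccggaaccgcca
RPL12: cgatttccggCCTCTCggctttcggctcgg

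The paralogs are shown because 2 of the 3 pairs below differ in this run. RPL22 (chr1:6199576-6199605, minus) and RPL22L1 (chr3:170870176-170870205, minus) both had a long run, of 11 and 10 bases. RPS27 (chr1:153990752-153990781, plus) had a run of 9 bases and RPS27L (chr15:63157458-63157487, minus) a run of 1. RPL26 (chr17:8383174-8383203, minus) had a run of 14 bases and RPL26L1 (chr5:172958719-172958748, plus) a run of 2.
RPL22: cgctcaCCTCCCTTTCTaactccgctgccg
RPL22L1: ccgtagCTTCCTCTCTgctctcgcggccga
RPS27: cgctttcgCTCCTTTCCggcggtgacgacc
RPS27L: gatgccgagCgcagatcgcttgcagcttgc
RPL26: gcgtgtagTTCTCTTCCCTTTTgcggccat
RPL26L1: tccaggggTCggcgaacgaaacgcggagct

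Of the 85 genes, 84 were found in RefSeq at their position in the table. The exception, RPS10L, is an older symbol of RPS10P5, a pseudogene, so it fits the name pattern without being a known ribosomal protein gene. The 85 genes lie on 21 chromosomes, with 12 on chromosome 19, and 24 of them hold small nucleolar RNA genes, 48 in all, within their bounds. Exon bases are shared with another listed gene in 47. In 11 of these the overlapping gene had more than 50% as many input reads as the ribosomal protein gene, as RPL36A with the readthrough gene RPL36A-HNRNPH2, so their values are uncertain. Reads of the overlapping gene were counted over its whole length, whatever the size of the overlap. They do not show how many reads fell on the shared bases. A further 1002 rows are ribosomal protein pseudogenes, whose near-identical sequence can share reads with these genes, and they took 0.128% to 0.239% of the counts of a library.

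Library totals ran from 32027379 to 47205265 counts. METTL14 was at 51.6 and 50.9 CPM (counts per 1e6, with library totals scaled by TMM factors) in the shNC inputs and at 14.3 and 15.3 CPM in the shMETTL14 inputs, a log2 change of -1.79 ± 0.07 (SE) in edgeR, adjusted p = 1.28e-15. Among the neuroblastoma markers MYCN was at 4405 to 4636 CPM and HAND2 at 1030 to 1152 CPM in the inputs. DBH, the enzyme that makes noradrenaline, was low at 2.43 to 4.67 CPM. Of the 8 markers 5 were called higher in the shMETTL14 inputs and none lower by edgeR, and the part of this in the results below was not tested. Over all 22245 genes tested 11.7% were called higher and 12.3% lower. TH, the rate-limiting enzyme of catecholamine synthesis, went from 34.0 and 37.2 CPM to 72.2 and 73.4 CPM (log2 1.03, edgeR adjusted p = 7.94e-13). DBH, ISL1, GATA3 and HAND2 rose by 0.84, 0.45, 0.28 and 0.14 on the log2 scale. Of 5 markers of other cells, PTPRC, CD74, PECAM1 and EPCAM lay between 0 and 5.70 CPM in every input. The fifth, COL1A1, was at 85.7 and 92.3 CPM in the shNC inputs and 57.5 and 54.5 CPM in the shMETTL14 inputs, so it fell with the changes below, and its part in them was not tested.

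Reads on the 85 genes made up 4.02% and 4.04% of all counts in the shNC inputs, and 3.73% and 3.74% in the shMETTL14 inputs. The share was lower in the IP libraries, at 2.91% and 2.91% in shNC and 2.80% and 2.79% in shMETTL14. In each arm both IP libraries were below both inputs, and in each kind of library both shMETTL14 values were below both shNC values. Of the 85 genes, 80 were above 10 CPM in every input.

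Per kilobase of merged exon the median of the 85 genes was 115 RPKM (CPM divided by the length in kilobases) in the shNC inputs, and the quartiles lay at 56.0 and 261 RPKM. RPL19, a 60S protein, was the highest at 776 ± 15.2 RPKM (SD, n = 2). RPS2, RPS12, RPL13A and RPS6 followed at 512 ± 8.79, 487 ± 3.14, 484 ± 1.26 and 453 ± 21.5 RPKM. RPS6 is the substrate of the S6 kinases downstream of mTORC1. RPS6 overlapped the next gene, RPLP2, in its 2 shNC inputs, and 35 of the 84 neighbouring pairs in the order overlapped in this way, so the order is settled only in part. The length used is the merged length of all exons listed for a gene, including those of rare transcripts, so these levels understate genes with long minor exons.

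The 5 lowest levels were those of paralogs and of RPS10L. RPL10L and RPL3L, paralogs known from testis and from muscle, had 3 and 24 input reads over all 4 inputs and were not tested. RPS10L had 77 input reads, or 0.928 RPKM in shNC. RPS27L, a paralog induced by p53, was at 0.933 RPKM in shNC against 342 for RPS27. RPL22L1 was at 5.03 RPKM against 99.2 for RPL22, RPL7L1, a nucleolar paralog of RPL7, at 16.1 against 197, and RPL26L1 at 23.8 against 359 for RPL26. RPL39L, another paralog known from testis, was at 28.1 RPKM against 127 for RPL39. In all 7 pairs the paralog with the L suffix was the lower one. Low levels were not confined to such paralogs, since RPS29 was at 6.36, RPL28 at 21.9 and RPL18 at 25.5 RPKM in shNC.

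After METTL14 knockdown the input level of ribosomal protein mRNAs was lower for most of the genes, by small amounts. Of 83 genes tested with edgeR, 48 fell (57.8%), 1 rose, and 34 did not pass an adjusted p of 0.05. Over all 22245 genes tested the share called lower was 12.3% and the share called higher 11.7%. Because abundant genes pass more easily, the 2020 other genes of at least 100 CPM give a closer background: 23.3% of them were called lower and 29.1% higher, against 46 (63.9%) and 1 of the 72 ribosomal protein genes at that level. The median log2 change of the 83 was -0.117, against 0.002 over all genes and 0.018 over the 2020, so the middle gene fell by 7.79%. The 4 inputs showed this gene by gene, since both shMETTL14 inputs lay below both shNC inputs in 67 of the 83 genes, where 29.1% of all genes did, and above them in 4. In bulk RNA such as this, fewer cells of a type and less RNA per cell cannot be told apart. All values are relative to the average gene, and the count depends on the scaling. With factors from the 13 mitochondrial mRNAs the median of all genes moved to 0.102 and that of the 83 to -0.017. This left 9 of these genes called lower and 7 higher. Such factors shift every gene by about the same amount, so they cannot change the gap between the medians. Without shMETTL14 culture 1 the count of falls was 26, without shMETTL14 culture 2 it was 17, and with no filter on low counts it was 23.

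**Figure D1:**
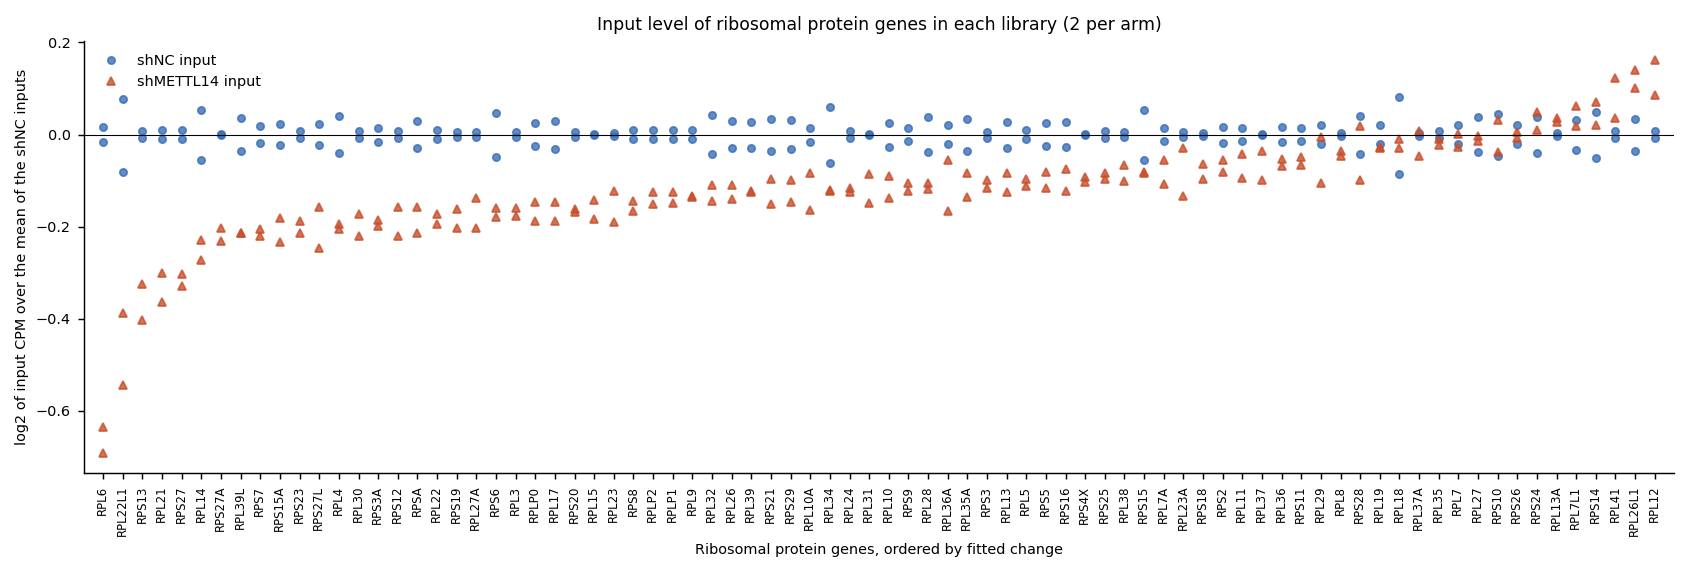
Input level of 80 ribosomal protein genes in each of the 4 input libraries, as log2 of CPM over the mean of the 2 shNC inputs, with genes ordered by fitted change. Triangles (shMETTL14) lie below the circles (shNC) over most of the order, RPL6 stands lowest on the left, and RPL12 is at the right end. RPS10L, with 77 input reads, and 2 other genes are not shown.

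Both subunits took part. Of the 33 small subunit genes tested 18 fell, with a median of -0.123, and no other was called. Of 50 large subunit genes 30 fell and 1 rose, with a median of -0.115. A difference between the subunits was not tested. Among the genes that hold small nucleolar RNA genes 17 of 24 fell, and among the others 31 of 59. Falls were called in 17 of the 36 genes that share no exon base with another gene and in 31 of the 47 that do. Over all genes tested 12.3% were called lower. Neither of these differences was tested, and the genes compared were not matched for input level.

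Most falls were small: 42 of the 48 were under 0.25 on the log2 scale and 6 were larger. RPL6, a 60S protein, was at 633 and 618 CPM in the shNC inputs and at 387 and 403 CPM in the shMETTL14 inputs. The arms were far apart relative to the spread within them, with means of 626 ± 10.4 and 395 ± 11.1 CPM (SD, n = 2) and a log2 change of -0.66 ± 0.03 (SE; edgeR adjusted p = 2.01e-13). On the fitted scale it fell by 36.9%. Leaving out any culture or changing the scaling or the tool kept its log2 change between -0.698 and -0.564. RPL6 shares 111 of its 4447 exon bases, 2.5%, with PTPN11 on the opposite strand. PTPN11 had 38144 input reads over the whole gene against 74863 for RPL6, so RPL6 is among the 11 genes whose values are uncertain. The next gene in the order, RPL22L1, was at -0.463 with an SE of 0.109, and the difference between the pair was not tested.

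RPL22L1, the low paralog of RPL22, was at 12.4 and 11.1 CPM in shNC and at 8.95 and 8.03 CPM in shMETTL14. Its log2 change was -0.46 ± 0.11 (SE; edgeR adjusted p = 0.00251), and the adjusted p was 0.0534 without the shNC culture 1 and 0.131 without the shMETTL14 culture 2. RPL22, which is known to repress RPL22L1, also fell, from 490 and 483 CPM to 425 and 432 CPM, by a log2 of -0.18 ± 0.03. Both paralogs thus had lower inputs in both shMETTL14 cultures.

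RPS13, an early-assembling protein of the 40S subunit, was at 128 and 127 CPM in shNC and at 102 and 96.5 CPM in shMETTL14, a log2 change of -0.36 ± 0.04 (edgeR adjusted p = 4.39e-07). RPL21, a 60S protein whose gene is mutated in a hereditary form of hair loss, was at 190 and 187 CPM in shNC and at 146 and 153 CPM in shMETTL14, a log2 change of -0.33 ± 0.04 (edgeR adjusted p = 3.81e-07). RPS27, a zinc finger protein of the 40S subunit, was at 326 and 321 CPM in shNC and at 257 and 262 CPM in shMETTL14, a log2 change of -0.32 ± 0.03 (edgeR adjusted p = 1.23e-07). In each of these 3 genes the inputs of the arms did not overlap. RPS13 shares exon bases with PIK3C2A on the same strand, which had 10770 input reads against 16770 for RPS13, so its values here and below are uncertain. RPS27L, the paralog of RPS27, at 8.65 and 8.38 CPM against 7.64 and 7.18 CPM, did not pass the test (log2 -0.20 ± 0.12, edgeR adjusted p = 0.238).

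RPL12, part of the base of the ribosomal stalk where translation factors bind, was the only gene called higher. It was at 386 and 391 CPM in shNC and at 434 and 412 CPM in shMETTL14, a log2 change of 0.12 ± 0.03 (edgeR adjusted p = 0.00845). The call was lost without either shMETTL14 culture, with adjusted p of 0.240 and 0.0684. The other members of the stalk moved the other way: RPLP0, which anchors the stalk, fell by 0.17, and the stalk proteins RPLP1 and RPLP2 each fell by 0.14 on the log2 scale, all 3 past the threshold.

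**Figure D2:**
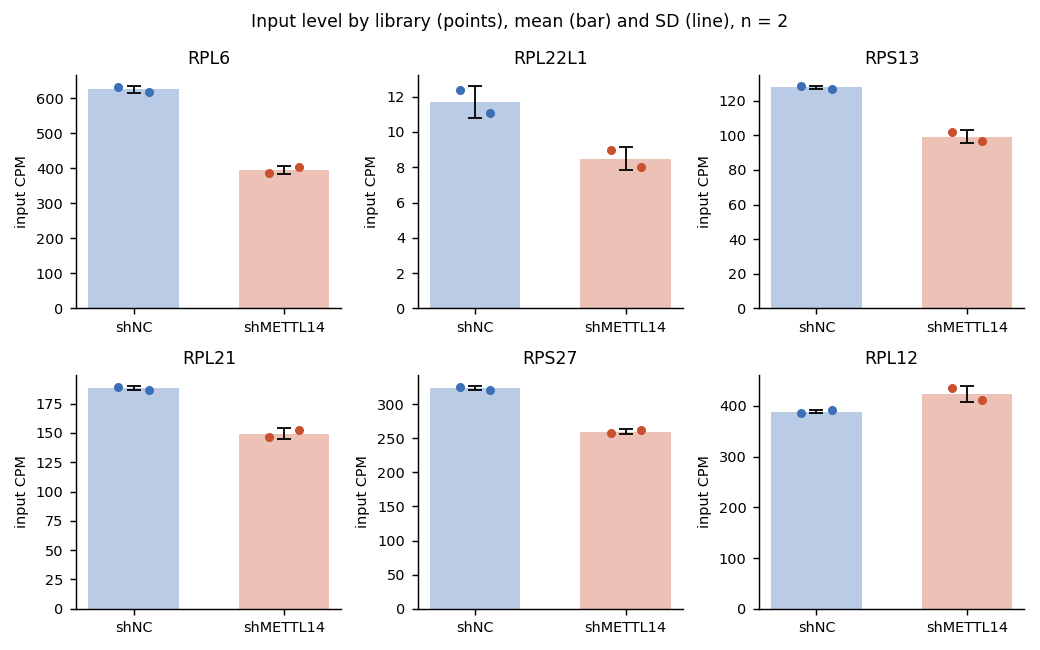
Input CPM of RPL6, RPL22L1, RPS13, RPL21, RPS27 and RPL12, with a point for each library, bars at the mean and lines for the SD (n = 2 per arm). In all 6 genes both shMETTL14 points lie on 1 side of both shNC points, below in the first 5 and above in RPL12.

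The genes with a known role outside or around the ribosome did not move as 1 block. RPL5, RPL11 and RPL23 bind MDM2 and so link ribosome assembly to p53. RPL5 and RPL23 fell by 0.10 and 0.16 on the log2 scale, while RPL11 was at -0.07 ± 0.03 (edgeR adjusted p = 0.139). RPS19, the gene most often mutated in Diamond-Blackfan anaemia, fell by 0.18, whereas RPS14, deleted in the 5q- syndrome, was at 0.05 ± 0.03 (edgeR adjusted p = 0.393). RPS27A, which is made as a fusion with ubiquitin, fell by 0.22, RPSA, also known as the laminin receptor precursor, by 0.19, and RPS6 by 0.17. RPL13A, known for its part in interferon-gamma-controlled translation, was at 0.03 ± 0.03 (adjusted p = 0.482), RPL38, known for its part in the translation of Hox mRNAs, at -0.08 ± 0.03 (adjusted p = 0.076), and RPL41, a very short basic protein, at 0.08 ± 0.04 (adjusted p = 0.111), all in edgeR.

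Of the remaining paralog pairs, RPL39 and RPL39L fell, by 0.12 and 0.21 on the log2 scale, and so did RPL3, by 0.17, RPL26, by 0.13, and RPL10, by 0.11. RPL26L1 was at 28.3 and 27.0 CPM in shNC and at 29.7 and 30.5 CPM in shMETTL14 (log2 0.12 ± 0.07, edgeR adjusted p = 0.204). RPL7 and RPL7L1 were at -0.01 ± 0.03 and 0.04 ± 0.04, neither past the threshold. The length of the pyrimidine run did not order the changes: over 66 genes with a listed start, which share library and depth, it correlated with the input change by r = 0.053 (Spearman 0.087), and the median run was 11 bases both in the 39 that fell and in the 27 that were not called lower.

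Related gene groups give the surroundings, and their counts are to be read beside the shares over other genes. Over all genes tested 11.7% were called higher in input and 12.3% lower, and of the 2020 abundant other genes 29.1% and 23.3%. Whether any of these groups departs from those shares was not tested. Of 14 other TOP mRNAs, which encode translation factors and a few other proteins, 6 fell and 2 rose, with a median of -0.055. NAP1L1, a histone chaperone, was the lowest of them at -0.41 ± 0.03 (875 and 811 CPM in shNC, 627 and 641 CPM in shMETTL14), EEF1A1, the elongation factor that delivers aminoacyl-tRNA, fell by 0.20, and EEF1G and EEF2 rose by 0.13 and 0.08. Of 13 regulators of TOP mRNAs, most of them in the mTORC1 pathway, 6 rose and the other 7 were not called, with a median of 0.107. MTOR rose by 0.18 on the log2 scale, LARP4 by 0.45 and RPS6KB1 by 0.21. The other rises were TSC1, by 0.22, TSC2, by 0.17, and EIF4EBP1, by 0.13. LARP1, at 0.05 ± 0.03 (edgeR adjusted p = 0.343), did not pass the threshold. Of 35 ribosome biogenesis genes 12 rose and 3 fell, with a median of 0.071. PES1, needed for 60S maturation, rose by 0.23, and SBDS, needed for its final activation, fell by 0.28. Of 78 mitochondrial ribosomal protein genes 7 rose and 8 fell, with a median of 0.054. Among 4 ribosomal proteins outside the name pattern, 1 fell, RACK1, by 0.12 on the log2 scale. FAU and RPL36AL did not pass the test, at 0.07 and 0.04.

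**Figure D3:**
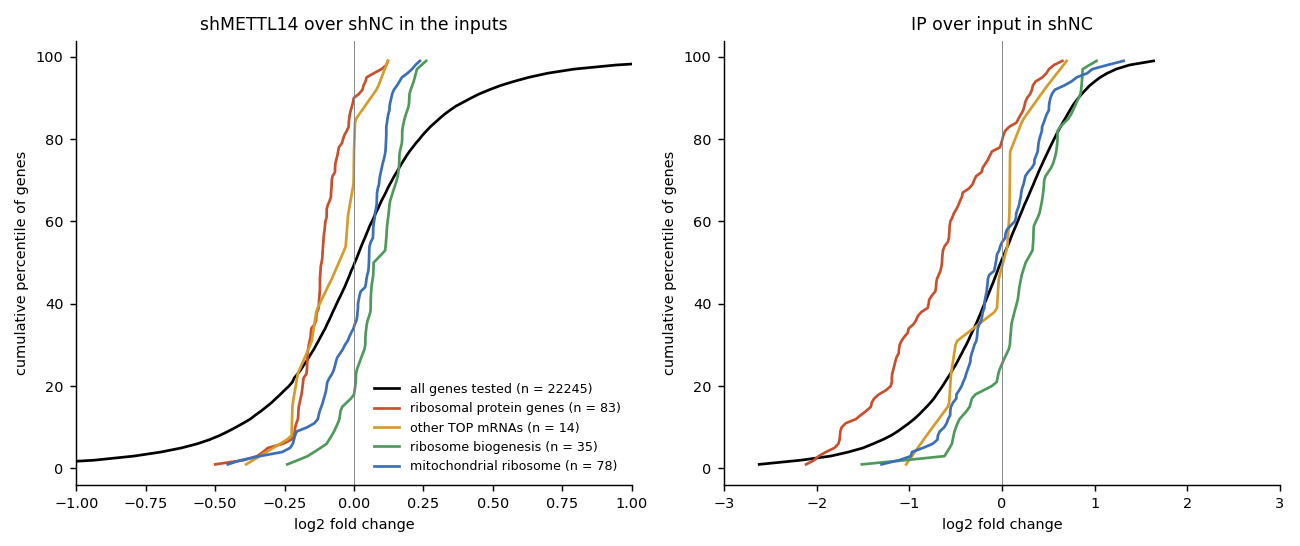
Cumulative percentiles of the log2 change of the inputs (left) and of log2 IP over input in shNC (right), for all genes tested, the 83 ribosomal protein genes and 3 related groups. In both panels the curve of the ribosomal protein genes crosses the middle left of the others, at -0.117 and -0.649, and in the left panel it is much steeper than that of all genes. The left panel is drawn from -1 to 1.

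In control cells the m6A antibody recovered most ribosomal protein mRNAs less well than the average gene, and the genes differed widely. In shNC 64 of 83 were lower in IP than in input (77.1%), 14 were higher and 5 were not called. Over all 22953 genes tested 29.8% were lower and 29.1% higher, and of the 2020 abundant other genes 35.5% were lower and 52.7% higher. The median log2 IP over input of the 83 was -0.649, and 29 genes were past the threshold with at least a 1 log2 deficit. As a ratio, IP over input was 0.636 in shNC culture 1 and 0.637 in culture 2 at the median gene, and single genes ran from 0.180 to 1.78. The ratio compares a gene with the average gene and is no measure of the share of its molecules that carry m6A. With factors from abundant genes that are no member, or from the 13 mitochondrial mRNAs, the median of all genes moved from -0.014 to -0.234 and -0.252, and 8 and 6 genes were then called higher and 69 lower in both. Counting per whole gene hides where in a gene the antibody bound.

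RPL10, which completes the tRNA and peptide-transfer sites of the 60S subunit, was the lowest. Its IP over input was 0.189 and 0.180 in shNC and 0.207 and 0.200 in shMETTL14, and its log2 value in shNC was -2.44 ± 0.05 (SE; edgeR adjusted p = 6.98e-41). RPL10 shares 52.7% of its exon bases with genes that overlap it, and the one with the most reads had 2591 input reads against 36129 for RPL10. RPLP0 followed at 0.253 and 0.232 in shNC, and RPS21, a small 40S protein, at 0.265 and 0.225. RPS13 was at 0.267 and 0.255. In shMETTL14 these 4 genes lay between 0.200 and 0.329, below the average gene in every culture. RPLP1, the partner of RPLP0 in the stalk, was close to them at 0.307 and 0.281, while RPLP2 was at 0.446 and 0.451.

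At the other end was RPS24, a 40S protein whose gene is mutated in some cases of Diamond-Blackfan anaemia, at 1.54 and 1.78 in shNC and 1.54 and 1.50 in shMETTL14. Its log2 IP over input in shNC was 0.73 ± 0.04 (SE; edgeR adjusted p = 2.85e-22). RPL7L1 was at 1.51 and 1.60, RPL26 at 1.33 and 1.54, and RPL19 at 1.36 and 1.45 in shNC. These 4 genes stayed above 1 in both shMETTL14 cultures too. RPL26 overlaps a gene that had over 50% as many input reads as it did, so its reads may be shared with that gene. The order held on the whole between the arms, as the ratios by culture show: the log2 values of 82 genes correlated between shNC and shMETTL14 by r = 0.993 (Spearman 0.986), as a description over genes that share their libraries.

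**Figure D4:**
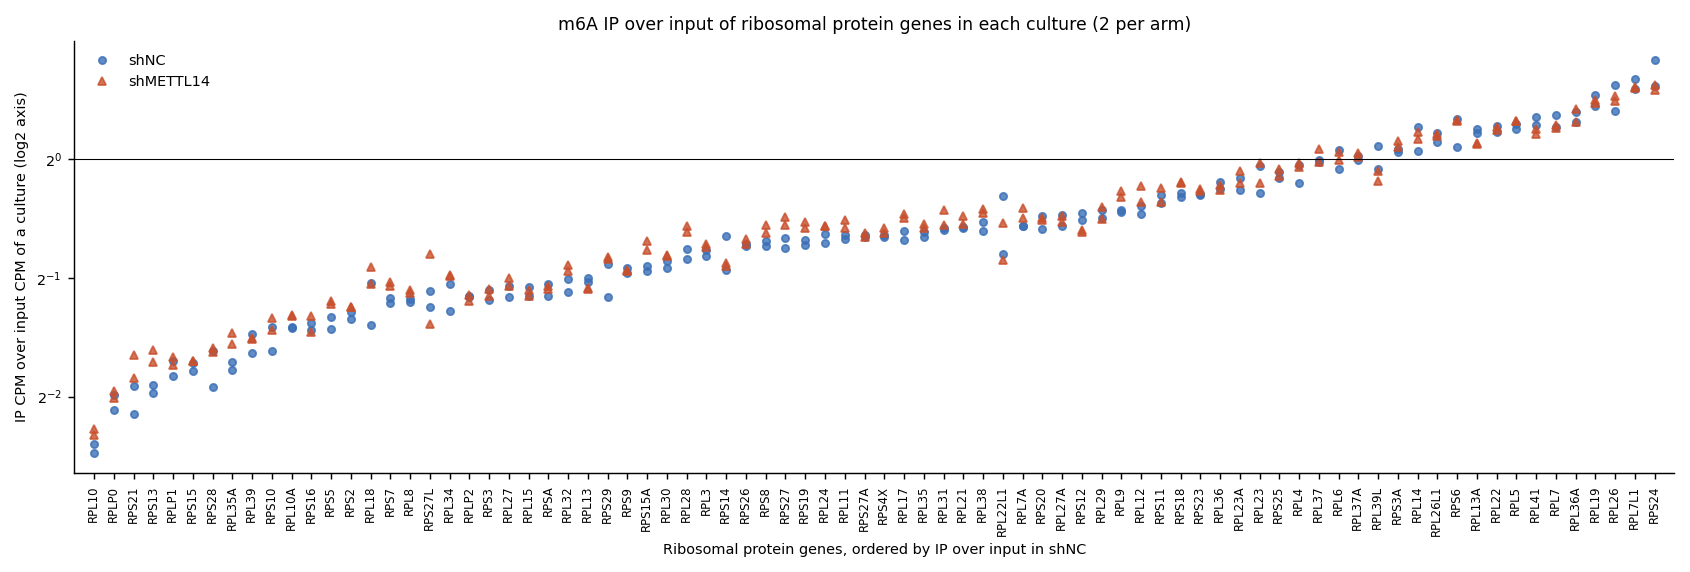
IP CPM over input CPM of each culture, on a log2 axis, for 80 ribosomal protein genes ordered by their value in shNC. The points run from about 0.2 at RPL10 to above 1.5 at RPS24, and the arms lie close together along the whole order, with shMETTL14 (triangles) above shNC (circles) in many of the genes on the left.

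The paralog pairs lay on the same side of the average gene in some cases and not in others. RPL7L1 and RPL7 were both called higher, at log2 values of 0.64 and 0.33 in shNC, and so were RPL26L1 and RPL26, at 0.18 and 0.52. RPL22 was called higher at 0.25 and RPL22L1 lower at -0.57. RPL39 was called lower at -1.55, and RPL39L, at 0.02 ± 0.07, was not called. RPS27 and RPS27L were both called lower, at -0.71 and -1.19. Differences between paralogs were not tested.

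Among the genes with known roles RPL5, RPL13A, RPL41 and RPS6 were called higher, at log2 values of 0.28, 0.24, 0.32 and 0.22 in shNC. RPSA, RPL11, RPL23, RPS19, RPS14, RPS27A, RPL38, RPLP0, RPLP1 and RPLP2 were called lower, between -2.05 for RPLP0 and -0.17 for RPL23. RPL6, the gene with the largest fall in input, was at 0.942 and 1.05 in shNC and was called neither way (log2 -0.01 ± 0.04, edgeR adjusted p = 0.915). RPL5 and RPL11, which enter the ribosome together with the 5S RNA, were thus on opposite sides of the average gene.

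Both subunits held genes far below and genes above the average gene. Of 33 small subunit genes 29 were lower and 3 higher, with a median of -0.784, and of 50 large subunit genes 35 were lower and 11 higher, with a median of -0.568. The difference between the subunits was not tested. The merged exon length was unrelated to IP over input among them (82 genes, r = 0.036, Spearman 0.033), where over all 22953 genes the coefficient was 0.186 (Spearman 0.122). Input level had a weak positive relation with it (82 genes, r = 0.251, Spearman 0.325). These genes share the same libraries, and the coefficients are descriptions. The length of the pyrimidine run gave r = -0.046 over 66 genes. Ribosome biogenesis genes differed from the ribosomal proteins in their counts, with 22 of 35 called higher and 7 lower and a median of 0.255. Of all genes 29.1% were higher and 29.8% lower, and of the 2020 abundant other genes 52.7% and 35.5%. The other TOP mRNAs had a median of 0.012 and the mitochondrial ribosomal protein genes one of -0.067.

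**Figure D5:**
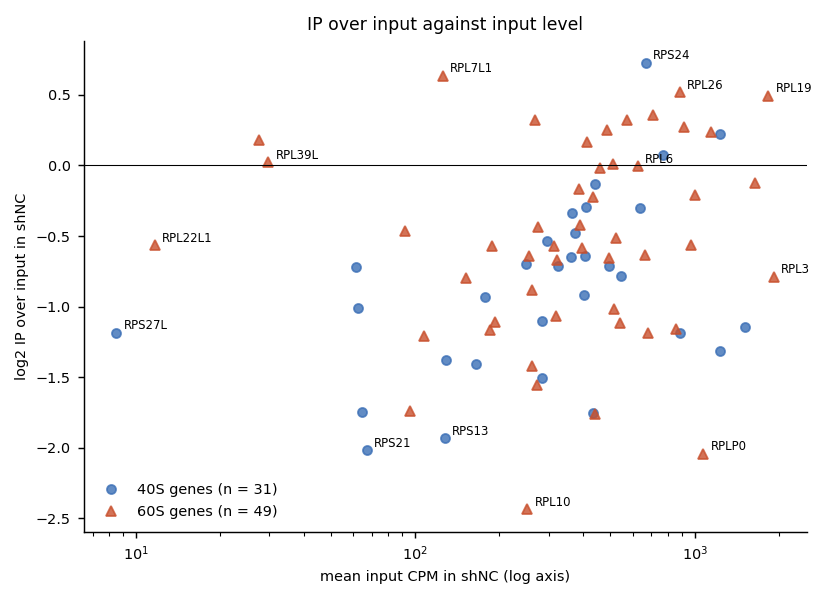
Log2 IP over input in shNC against the mean input CPM in shNC (log axis) for 80 ribosomal protein genes, circles for the 40S and triangles for the 60S subunit. The points form no line, and RPLP0 and RPL19, which both have high input levels, lie near opposite ends of the vertical axis.

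In shMETTL14 cells the picture of IP over input, again relative to the average gene, was much the same. There 62 of 83 genes were lower in IP than in input and 15 were higher, with a median of -0.563, where 29.1% of all genes were lower and 28.9% higher. All 62 were also called lower in shNC, and 14 genes were called higher in both arms.

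Whether IP over input differed between shNC and shMETTL14 was tested directly, and none of the 83 passed the threshold. The contrast is relative to the average gene, since the scaling centres all genes (median -0.001). A fall in m6A shared by all genes would therefore not show in it, and the paper reports lower total m6A after METTL14 knockdown. Higher values below likewise mean higher relative to the average gene. In edgeR and in DESeq2 0 were called higher and 0 lower at an adjusted p of 0.05, where 0.00436% of all 22953 genes were called in edgeR. At an unadjusted p under 0.05, 23 were higher in shMETTL14 and 3 lower, where 3.03% of all genes were higher and 3.31% lower. Of the 72 genes of at least 100 CPM 27.8% were higher at this threshold, against 3.12% of the 2020 others. The median was 0.059, and both shMETTL14 cultures lay above both shNC cultures in 38 genes and below them in 5, where 17.2% and 17.4% of all genes did. The gene with the lowest unadjusted p was RPS13, at 0.267 and 0.255 in shNC and 0.306 and 0.329 in shMETTL14, a log2 difference of 0.28 ± 0.07 (edgeR adjusted p = 0.446). RPS21 had nearly as large a difference, 0.27 ± 0.09 (edgeR adjusted p = 0.604). With 1 culture left out a few were called: RPL18 higher and RPS24 lower without shNC culture 1, and RPL34 and RPS6 higher and RPS14 lower without shNC culture 2.

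These changes share their input libraries with the input comparison, so they are not independent of it. Compared between the arms without dividing by input, the IP level of the same genes had a median of -0.062, with 24 of 82 genes lower and 2 higher by edgeR, where 12.6% of all 21196 genes were lower and 10.4% higher. The median of the input change, from a separate fit, was -0.117.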

How the data were processed

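MeRIP-seq was carried out on polyadenylated RNA from SK-N-BE(2) cells in which METTL14 was knocked down by shRNA (shMETTL14) and in cells with a control shRNA (shNC). Each arm had 2 cultures, and every culture gave 1 input and 1 IP library. The libraries were stranded and carried unique molecular identifiers. The authors deposited raw read counts per gene, 1 column per library. The submitters' processing notes name Trimmomatic 0.36 and GRCh38. The aligner, the counter with its strand setting, and the use of the identifiers are not given in the sources used here. The table was the only one used, and its 8 value columns were all assigned by name to a sample.

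Counts were tested in R 4.3.3 with edgeR 4.0.16 (filterByExpr, TMM factors, glmQLFit and glmQLFTest, Benjamini-Hochberg over all genes, threshold 0.05). The input comparison used the 4 inputs, and IP over input and its change between the arms used 1 model of all 8 libraries with 4 group means. SE was taken as the size of the log2 change over the square root of F. CPM values use the TMM factors, and RPKM divides by the gene length in the table, which is the merged exon length. The labels do not say that the cultures were independent, so p-values measure only the spread between them. If duplicate identifiers were kept, counts are not independent molecules. The input fit and the fit of the change between the arms were also run on simulated counts, with results not reported here.

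Per the protocol, both libraries of a culture were made from 1 RNA preparation and are therefore paired. Across 22953 genes their deviations from the means of the groups had a correlation of 0.004 (shNC) and 5.70e-05 (shMETTL14). Replicate libraries differed by more than sampling noise in all 4 groups (chi-square per gene 2.43 to 4.00), and all 8 were kept as separate libraries.

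The genes, the related lists and the tests were chosen with earlier results of these data known. The genes named are METTL14, the 5 largest rises and falls among genes called in the input comparison and in the change of IP over input (mean of at least 50 counts, same direction in both same-numbered pairs), the 5 highest and 5 lowest in IP over input in shNC and in RPKM, 7 pairs of paralogs and 14 genes of known role. A few genes that these rules and lists hold are not reported here by name, and they are kept in the counts and medians. Genes named in the change of IP over input, in the related lists and for their overlaps were picked with their values in view. As alternatives, RLE factors, DESeq2 1.42.0, TMM factors on other genes, library size only, other filters, a minimum log2 fold change, a replicate block, leaving out each culture, genes sharing no exon base, the IP libraries alone and the inputs within the 8-library model were tried. Factors from abundant genes and from 13 mitochondrial mRNAs were added after seeing the data.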

Additional observations from a re-analysis of the deposited data

How the results depend on the processing

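The counts of ribosomal protein genes called, 48 lower and 1 higher in input, 64 and 14 in IP over input in shNC, 62 and 15 in shMETTL14, and 0 and 0 for the change between the arms, stayed within 1.5 times under DESeq2, RLE factors, library size only, TMM on genes that are no member and at least 10 counts in every library. The replicate block, with culture number as a term in the input fit, gave 47 lower and 1 higher in input. In the fits of IP over input the block was the culture itself, which pairs its IP and input, and the other counts were unchanged. Inputs with the same culture number in both arms are not paired beyond that number (correlation of deviations -0.012). With no filter beyond 1 read the input counts were 23 and 0. A log2 fold change of at least 1 left 0 and 0 in input, 29 lower and 0 higher in shNC, and 24 and 0 in shMETTL14. Genes sharing no exon base gave 17 lower in input, 28 and 6 in shNC and 28 and 6 in shMETTL14, out of 36. Factors from abundant other genes left 8 higher in each arm, and the mitochondrial mRNAs left 6 higher in each arm and 9 lower and 7 higher in input. Leaving out 1 culture gave 17 to 44 lower and 0 to 2 higher in input, 60 to 64 and 12 to 15 in shNC, 59 to 63 and 12 to 15 in shMETTL14, and 0 to 1 and 0 to 2 for the change between the arms. There the remaining culture of an arm is assumed to vary like the others, and the lowest counts of falls came without shMETTL14 culture 2 (17) and culture 1 (26). The IP libraries alone, which leave out the input by construction, had 24 lower and 2 higher and turned the median change from 0.059 to -0.062, RPS13 from 0.277 to -0.092 and RPS15A from 0.195 to -0.020. The minimum fold change, the smaller set of genes and the IP libraries alone differ from the main setting by construction. Causes of the other moves, including those with factors from abundant genes and from mitochondrial mRNAs, were not tested. Among the named genes, 22 calls were lost under some alternative, 2 entries were reversed, and 406 kept direction and side of the threshold. With 2 cultures per arm, small changes may pass undetected.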
